A study of Arabidopsis thaliana with 6 samples.

Results

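Transcripts for proteins of the cytosolic large ribosomal subunit, from L3 to L24, were measured on ATH1 arrays of Arabidopsis seedlings. ATH1 is an Affymetrix array on which each gene is read by a probe set, a group of short probes whose signals are summarised into 1 value. Of 59 listed genes, 36 were named by the array's gene annotation, through 34 probe sets for 16 proteins, out of 22746 probe sets tested. These 34 are called members below. The probe sets RPL6B/C and RPL9B/C are each shared by a pair of paralogues and cannot separate them. The other 23 listed genes, among them RPL24A and RPL24B, were named only through the pairs of probe set and locus in the study's supplement. Their 21 probe sets are given beside the members and are not counted among them. The list leaves out proteins L21 and L22 and some paralogues of listed proteins, RPL24C among them.

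There were 3 arrays of the eif3k mutant and 3 of wild-type, both in the Columbia ecotype, with total RNA from the aerial part of 11-day-old seedlings. The mutant is a single line with a T-DNA inserted into intron 6 of eIF3k (AT4G33250), which encodes a subunit of initiation factor eIF3, and the study's methods describe a truncated transcript with no full-length form. Seedlings of both genotypes were grown at 22 °C on plates of 0.8% agar supplied with 1% sucrose and collected 4 h after lights on, in 16 h days per the labels but in continuous light per the methods for eif3k, a difference not settled in the sources used here. Per the labels, the arrays of replicates 1 and 2 were made on a first date and those of replicate 3 at a later one, so replicate 3 and the later date cannot be told apart.

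The large subunit joins amino acids in its peptidyl transferase centre and releases the growing chain through the exit tunnel. Its proteins are made in the cytosol, imported into the nucleolus and assembled there on the large ribosomal RNAs, and they are needed in nearly equal amounts. In Arabidopsis each of them is encoded by several paralogues that are commonly transcribed together in dividing tissue. Initiation factor eIF3 binds the small subunit and takes part in loading mRNA onto it.

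Deposited signals were on the log2 scale, with 2.25 as their floor and 15.55 as their maximum, and array medians were 4.02 to 4.12. The transcript of the mutated gene had log2 signals of 6.81, 6.62 and 7.52 in eif3k replicates 1, 2 and 3 and of 8.82, 9.18 and 8.89 in wild-type replicates 1, 2 and 3. The groups did not overlap, and the difference was -1.98 with an SE of 0.28 (limma, unadjusted p = 0.00152, adjusted p = 0.864). Transcripts of 6 photosynthesis proteins, a list drawn up after the annotation was seen, had mean log2 signals from 13.1 to 14.1. None of the aerial markers listed could be matched to a probe set, and among root and seed markers only EXPA7, PYK10, CRA1 and CRU3 could. The root hair marker EXPA7 lay between 2.25 and 2.26 on every array. PYK10, a protein of root and seedling ER bodies, ran from 10.4 to 11.6. The seed storage transcript CRA1 had log2 signals of 2.86, 7.58 and 7.43 in eif3k and of 2.62, 2.98 and 8.93 in wild-type, and the second seed storage transcript, CRU3, was high on the same 3 arrays. The array's control probe set for the larger ribosomal RNA read 8.13 on eif3k replicate 3 and between 12.04 and 12.87 on the other 5 arrays. Its GAPDH controls were lower on both replicate 3 arrays than on the others. The GAPDH control for the middle of the transcript read 10.49 in eif3k and 10.13 in wild-type replicate 3, and 11.0 to 11.35 elsewhere. The ubiquitin control was not lower there, at 13.45 and 13.46.

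The first question was whether transcript levels of the large-subunit genes differed between eif3k and wild-type. No member passed the test. At an adjusted p under 0.05 (limma, Benjamini-Hochberg over all probe sets), 0 of 34 members were called, beside 0.0% of all probe sets. At an unadjusted p under 0.05 the count was also 0 of 34, beside 3.05% of all probe sets and 5.35% of the brighter ones, those with a mean above the median over all, as 33 of the 34 members have. In no member were the groups free of overlap, beside 2.71% of all probe sets and 4.55% of the brighter ones with eif3k higher throughout, and 2.31% and 4.01% with eif3k lower throughout. The median member difference, eif3k minus wild-type, was 0.02 on the log2 scale, and the median over all probe sets was 0.00. The members ran from -0.20 (RPL12C) to 0.21 (RPL9B/C), that is at most 1.15-fold in either direction, with 18 above and 15 below 0. Standard errors of these differences ranged from 0.07 to 0.41, and the 95% confidence intervals of single members reached from -1.09 to 1.15, so the precision for a single member is limited by 3 arrays a group. In whole aerial tissue, fewer cells that express a gene and less of its RNA per cell cannot be told apart. RPL8B (AT3G51190), a paralogue of the protein next to the peptidyl transferase centre, lay at the floor of 2.25 on all 6 arrays, where no difference can be seen.

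Most members were higher in eif3k in replicate 1 and lower in replicate 3, while in replicate 2 they were divided. Within the first date, arrays were matched by the number in their labels alone. In replicate 1, 33 of 34 members were higher in eif3k than in wild-type, with a median of 0.41 (33.1% of all probe sets were higher, and 46.5% of the brighter ones). Replicate 2 gave a median of -0.07, with 20 members lower in eif3k and 12 higher (34.6% of all probe sets and 50.6% of the brighter ones were lower). In replicate 3, 29 members were lower in eif3k, with a median of -0.33 (32.5% of all probe sets and 46.6% of the brighter ones were lower). The same 29 members were higher in replicate 1 and lower in replicate 3, an order found in 14.1% of all probe sets and in 21.7% of the brighter ones. Only RPL10aA and RPL13aB were higher in eif3k in all 3 replicates, beside 8.23% of all probe sets and 13.3% of the brighter ones, and no member was lower in all 3, beside 8.23% of all probe sets.

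**Figure D1:**
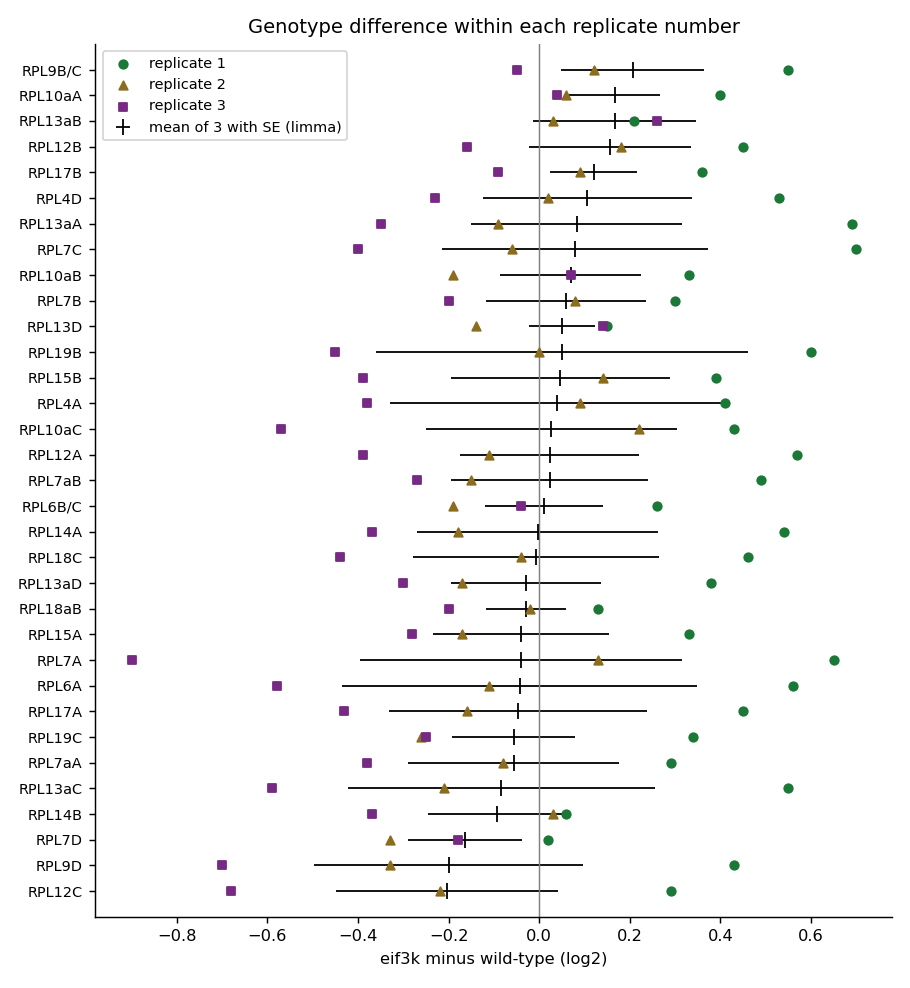
Difference in log2 signal, eif3k minus wild-type, of 33 members (rows, ordered by their mean; RPL8B at the floor is left out) in replicate 1 (circles), 2 (triangles) and 3 (squares), with the mean and its limma SE (tick and line). Circles of all 33 members lie above 0, from 0.02 to 0.70, and 29 of the 33 squares lie below 0.

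Seen array by array, the members fell into a common order. After each member's own mean over the 6 arrays was taken off, the median member stood at 0.26 on eif3k replicate 1, 0.12 on eif3k replicate 2, -0.35 on eif3k replicate 3, -0.14 on wild-type replicate 1, 0.15 on wild-type replicate 2 and -0.07 on wild-type replicate 3 (33 members, without RPL8B). On eif3k replicate 1 all 33 were above their own mean, beside 32.7% of all probe sets and 48.5% of the brighter ones, and on eif3k replicate 3 only 2 were, beside 33.4% and 49.8%. The lowest signal of a member was on eif3k replicate 3 in 23 of 34 cases, beside 14.8% of all probe sets and 23.9% of the brighter ones. In another 8 it was on wild-type replicate 1 (8.41% of all probe sets and 12.4% of the brighter ones). The highest signal was on eif3k replicate 1 in 19 members, beside 12.9% of all probe sets and 16.3% of the brighter ones, and on wild-type replicate 2 in 8, beside 11.6% and 13.5%. When the median of the members was subtracted on each array, the SD of a member over the 6 arrays dropped in 27 of 33 members, and its median went from 0.25 to 0.14. That median came from these same members, and no other list was put through this step. The array on which most members were lowest is the one with the low ribosomal RNA control. The GAPDH controls were lower on it and on wild-type replicate 3 than on the other arrays. The part of these controls in the result was not tested. The seed storage transcripts were high on eif3k replicate 3 and on eif3k replicate 2, where 29 of the 33 members were above their own mean (32.5% of all probe sets and 49.0% of the brighter ones were). They were high on wild-type replicate 3 too, where 11 members were (31.6% and 46.0%). Their part in the result was not tested.

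**Figure D2:**
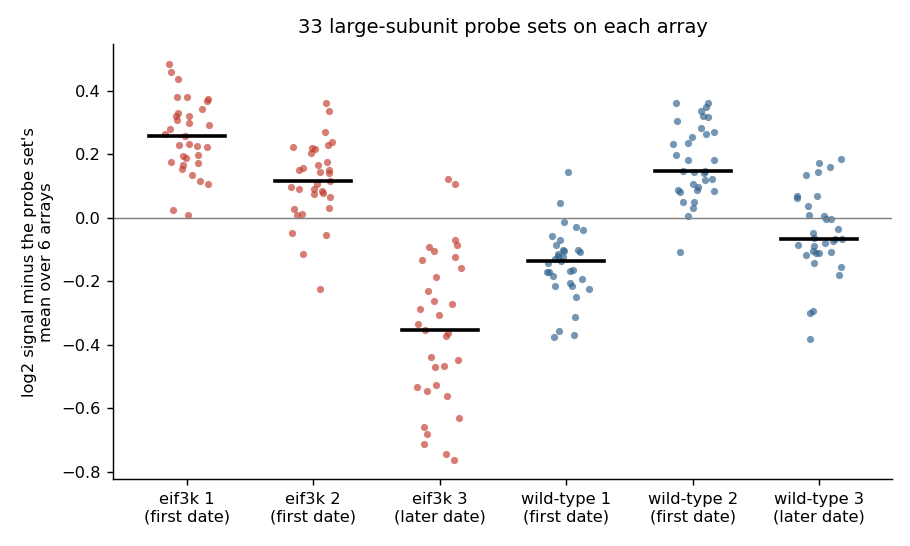
Log2 signal of 33 members on each of the 6 arrays, minus the member's mean over the arrays (points; eif3k in red, wild-type in blue), with the median of the members (black bar). The median bar is highest on eif3k replicate 1, at 0.26, and lowest on eif3k replicate 3, at -0.35.

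Proteins L4 and L17 line the exit tunnel with long extensions. RPL4A (AT3G09630) had log2 signals of 11.38, 11.36 and 10.32 in eif3k replicates 1 to 3 and of 10.97, 11.27 and 10.70 in wild-type replicates 1 to 3. Both arrays of the later date were below the others, and the genotypes overlapped. The genotype difference was 0.04 with an SE of 0.37 (limma, unadjusted p = 0.919). RPL17A (AT1G27400) read 10.27, 10.12 and 9.43 in eif3k against 9.82, 10.28 and 9.86 in wild-type. Its paralogue RPL17B (AT1G67430) read 11.86, 11.78 and 11.59 against 11.50, 11.69 and 11.68. Wild-type replicate 1 was the lowest array for RPL17B and eif3k replicate 3 for RPL17A, with overlapping groups in both. RPL17B differed by 0.12 with an SE of 0.10 (limma, unadjusted p = 0.276) and RPL17A by -0.05 with an SE of 0.28.

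L10a forms the mobile stalk that stands where spent tRNA leaves the ribosome. RPL10aA (AT1G08360) had the smallest unadjusted p of any member. Its log2 signals were 11.79, 11.65 and 11.49 in eif3k and 11.39, 11.59 and 11.45 in wild-type. The eif3k arrays were higher within each replicate number, by 0.40, 0.06 and 0.04, yet eif3k replicate 3 lay below wild-type replicate 2, so the groups overlapped. The difference of 0.17 had an SE of 0.10 and a 95% interval from -0.10 to 0.44 (limma, unadjusted p = 0.165, adjusted p = 1).

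L12 and L9 sit at the base of the other stalk, near the site where translation factors that use GTP bind. RPL12B (AT3G53430) had log2 signals of 11.19, 11.14 and 10.64 in eif3k and 10.74, 10.96 and 10.80 in wild-type. RPL12C (AT5G60670) read 10.23, 10.16 and 9.53 in eif3k against 9.94, 10.38 and 10.21 in wild-type. Eif3k replicate 3 was the lowest array of both paralogues, and the genotypes overlapped in each. The differences had opposite signs, 0.16 with an SE of 0.18 for RPL12B and -0.20 with an SE of 0.25 for RPL12C, neither past the test (limma, unadjusted p = 0.427 and 0.450). RPL12A (AT2G37190) read 10.41, 10.16 and 9.92 against 9.84, 10.27 and 10.31, and its lowest array was wild-type replicate 1, with a difference of 0.02 (SE 0.20).

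The L9 paralogues departed from each other across the arrays. RPL9B/C (AT1G33140 and AT1G33120), which includes the leaf-shape gene PIGGYBACK2, had log2 signals of 10.65, 10.49 and 10.60 in eif3k and 10.10, 10.37 and 10.65 in wild-type. It was not low on eif3k replicate 3, unlike most members, and wild-type replicate 3 equalled the highest eif3k array. The difference of 0.21 with an SE of 0.16 was the highest of the members and did not pass (limma, unadjusted p = 0.256). Leaving out wild-type replicate 1 gave 0.070 and leaving out wild-type replicate 3 gave 0.35, again not past the adjusted threshold. RPL9D (AT4G10450) read 8.33, 8.06 and 7.40 in eif3k against 7.90, 8.39 and 8.10 in wild-type. Its lowest array was eif3k replicate 3, the groups overlapped, and the difference was -0.20 with an SE of 0.30.

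L7 is an RNA-binding protein of the large subunit. RPL7D (AT3G13580) had log2 signals of 9.48, 9.09 and 9.13 in eif3k and 9.46, 9.42 and 9.31 in wild-type. The eif3k arrays held both the highest and the lowest value, and the difference was -0.16 with an SE of 0.13 (limma, unadjusted p = 0.258). RPL7B (AT2G01250) read 11.49, 11.50 and 10.99 against 11.19, 11.42 and 11.19. RPL7C (AT2G44120) read 10.50, 10.38 and 9.71 against 9.80, 10.44 and 10.11. Both had their lowest value on eif3k replicate 3, and their genotype differences were 0.06 (SE 0.18) and 0.08 (SE 0.29).

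L6, L13, L13a, L14 and L18 are further proteins that bind the large ribosomal RNAs. RPL13aB (AT3G24830) had log2 signals of 11.15, 11.13 and 10.83 in eif3k and 10.94, 11.10 and 10.57 in wild-type. In both genotypes replicate 3 was the lowest, and eif3k was higher in each replicate number, by 0.21, 0.03 and 0.26. The difference was 0.17 with an SE of 0.18 (limma, unadjusted p = 0.401). RPL13aC (AT4G13170) read 9.16, 8.93 and 8.12 against 8.61, 9.14 and 8.71, with its lowest value on eif3k replicate 3 and a difference of -0.08 (SE 0.34). RPL6A (AT1G18540) read 11.58, 11.36 and 10.36 in eif3k against 11.02, 11.47 and 10.94 in wild-type. It was lowest on eif3k replicate 3, and its genotype difference was -0.04 (SE 0.39). RPL18C (AT5G27850) read 11.43, 11.20 and 10.53 against 10.97, 11.24 and 10.97, a difference of -0.01 (SE 0.27) with overlapping groups.

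RPL14B (AT4G27090) had log2 signals of 12.59, 12.60 and 12.12 in eif3k and 12.53, 12.57 and 12.49 in wild-type. Eif3k replicate 3 stood below its other arrays, which lay close together. The genotype difference was -0.09 with an SE of 0.15. RPL13D (AT5G23900) varied least of the members off the floor, with 9.64, 9.56 and 9.72 in eif3k and 9.49, 9.70 and 9.58 in wild-type. Its SD over the 6 arrays was 0.09, its highest array was eif3k replicate 3, and the difference was 0.05 with an SE of 0.07.

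L19 and L24 reach across to the small subunit and form bridges between the subunits. RPL19B (AT3G16780) varied most of the members, with an SD of 0.47 over the 6 arrays. Its log2 signals were 8.88, 8.73 and 7.65 in eif3k and 8.28, 8.73 and 8.10 in wild-type, and both later arrays were below all others. The genotype difference was 0.05 with an SE of 0.41. RPL24B (AT3G53020), named through the supplement and known as SHORT VALVE1 for its part in fruit patterning, read 11.33, 11.30 and 10.73 in eif3k and 10.86, 11.25 and 10.66 in wild-type. Within each replicate number eif3k was higher, by 0.47, 0.05 and 0.07, and the genotypes overlapped. The difference was 0.20 with an SE of 0.25 and a 95% interval from -0.47 to 0.87 (limma, unadjusted p = 0.470, adjusted p = 1). RPL24A (AT2G36620) read 10.88, 10.71 and 9.86 against 10.40, 10.95 and 10.12. Its difference was -0.01 with an SE of 0.38, and its 95% interval from -1.03 to 1.01 covers a change of 2-fold in either direction.

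Among the 21 probe sets named through the supplement, 0 passed the genotype test, beside 0.0% of all probe sets. At an unadjusted p under 0.05 there were 0, beside 3.05% of all probe sets and 5.35% of the brighter ones. Their median difference was -0.01. In replicate 1 all 21 were higher in eif3k, beside 33.1% of all probe sets and 46.5% of the brighter ones. In replicate 3, 20 were lower, beside 32.5% and 46.6%. RPL3B (AT1G61580), a paralogue of the protein whose extensions reach the peptidyl transferase centre, was singled out after its values were seen. It read 7.03, 6.62 and 6.72 in eif3k and 5.73, 6.17 and 6.80 in wild-type. Wild-type replicate 3 lay above 2 of the eif3k arrays, and the difference of 0.56 had an SE of 0.32 (limma, unadjusted p = 0.150).

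The second question was whether paralogues of a protein shifted against each other between genotypes. The log2 ratio of a pair of probe sets was taken on each array, which removes any shift common to both, and its level was not read, because probe sets differ in brightness per transcript. Over 26 ratios between members, from 12 proteins, the median absolute change between genotypes was 0.12 and the largest 0.41. In an exact 2-sided permutation test over the 6 arrays, in which 3 against 3 cannot give a p below 0.1, 1 ratio reached 0.1 and none had a Benjamini-Hochberg value under 0.958 over the 26. For that ratio alone of the 26 (3.85%) the groups did not overlap. The share was 6.98% over the 43 ratios that add paralogues named through the supplement, which also contain it. Over 77 separate ratios between paralogues of small-subunit proteins it was 5.19%.

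The separated ratio was RPL12B over RPL12C. It was 0.96, 0.98 and 1.11 in eif3k replicates 1 to 3 and 0.80, 0.58 and 0.59 in wild-type, all eif3k arrays lying above all wild-type arrays, and it was 0.36 higher in eif3k (exact permutation p = 0.1, Benjamini-Hochberg 0.958). RPL9B/C over RPL9D changed most, by 0.41, with 2.32, 2.43 and 3.20 in eif3k and 2.20, 1.98 and 2.55 in wild-type. There the groups overlapped, since wild-type replicate 3 exceeded 2 eif3k arrays (exact permutation p = 0.4). Without eif3k replicate 3 the change was 0.13, and RPL7C over RPL7D then changed by 0.44. RPL13aB over RPL13aC was 1.99, 2.20 and 2.71 against 2.33, 1.96 and 1.86, a change of 0.25 with overlapping groups that was 0.045 without eif3k replicate 3 (exact permutation p = 0.5 with it).

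RPL7C over RPL7D changed by 0.24 over all arrays, and by 0.053 without wild-type replicate 1, with 1.02, 1.29 and 0.58 in eif3k and 0.34, 1.02 and 0.80 in wild-type. RPL7B over RPL7D was 2.01, 2.41 and 1.86 against 1.73, 2.00 and 1.88, a change of 0.22. Both share RPL7D, and in both the lowest eif3k array fell within the wild-type range (exact permutation p = 0.5 and 0.4). RPL12A over RPL12C was 0.18, 0.00 and 0.39 against -0.10, -0.11 and 0.10, higher by 0.23 in eif3k with 1 overlapping array (exact permutation p = 0.2). It shares RPL12C with the separated ratio and is not independent of it. RPL24A over RPL24B was -0.45, -0.59 and -0.87 in eif3k and -0.46, -0.30 and -0.54 in wild-type, a change of -0.20 with overlapping groups (exact permutation p = 0.3).

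**Figure D3:**
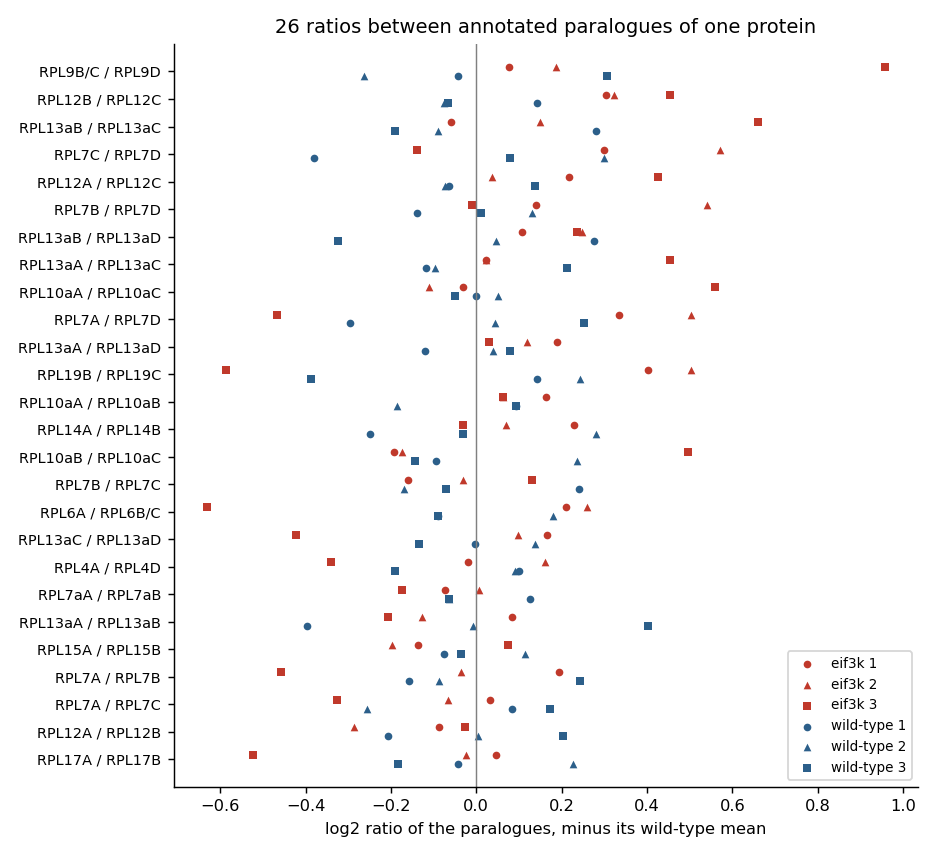
Log2 ratio between 2 member paralogues of a protein (26 rows) on each of the 6 arrays, minus the mean ratio of the 3 wild-type arrays; eif3k in red, wild-type in blue, with circles, triangles and squares for replicates 1, 2 and 3. Only in the RPL12B over RPL12C row do the 3 red points lie apart from the 3 blue ones.

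The third comparison set the later array date against the first. Adjusted for genotype, the median member was -0.31 on the later date, beside 0.00 for all probe sets, and 30 of 34 members were below 0 (41.3% of all probe sets and 51.4% of the brighter ones were). No member passed at an adjusted p under 0.05, beside 0.686% of all probe sets and 1.02% of the brighter ones. RPL4A, RPL13aB and RPL19B, 3 of 34, were lower at an unadjusted p under 0.05, beside 6.87% of all probe sets and 12.7% of the brighter ones. RPL13aB had the smallest p, with a difference of -0.38 (SE 0.07, limma, unadjusted p = 0.00726, adjusted p = 0.152). RPL19B differed by -0.78 (SE 0.26), RPL4A by -0.74 (SE 0.20) and RPL6A by -0.71 (SE 0.27). RPL13aC, RPL17A and RPL18C followed at -0.55, -0.48 and -0.46. Of the probe sets named through the supplement, RPL24A differed by -0.75 (SE 0.22) and RPL24B by -0.49 (SE 0.14), with adjusted p values of 0.290 and 0.282.

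Each genotype was then taken alone. In eif3k, replicate 3 minus the mean of replicates 1 and 2 had a member median of -0.51, with 31 of 34 members below 0, beside 36.9% of all probe sets and 49.0% of the brighter ones. In wild-type the same measure had a median of -0.07, with 23 below and 10 above 0, beside 38.1% and 52.6% below. Both later arrays were below both first-date arrays of their genotype in 8 of 34 members, beside 13.4% of all probe sets and 22.9% of the brighter ones, to which the members' share is close. Without eif3k replicate 3 the median of the date difference was -0.07. Without wild-type replicate 3, where eif3k replicate 3 alone stands for the later date, it was -0.51.

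Whether the date difference itself differed between genotypes was tested with the interaction term, for which each genotype has 1 later array. The genotype, date and interaction comparisons all rest on the same 6 arrays. The median interaction over the members was -0.48, with 30 of 34 below 0 (36.7% of all probe sets and 45.6% of the brighter ones were). At an adjusted p under 0.05, 0 of 34 members were called, beside 3.67% of all probe sets and 1.35% of the brighter ones. At an unadjusted p under 0.05, RPL7A, RPL10aC, RPL14B and RPL15B, 4 of 34, were lower, beside 6.34% of all probe sets and 5.72% of the brighter ones. RPL14B came closest to the adjusted threshold, with an interaction of -0.42 (SE 0.03). Its own spread rests on its first-date arrays alone, 12.59 and 12.60 in eif3k and 12.53 and 12.57 in wild-type.

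**Figure D4:**
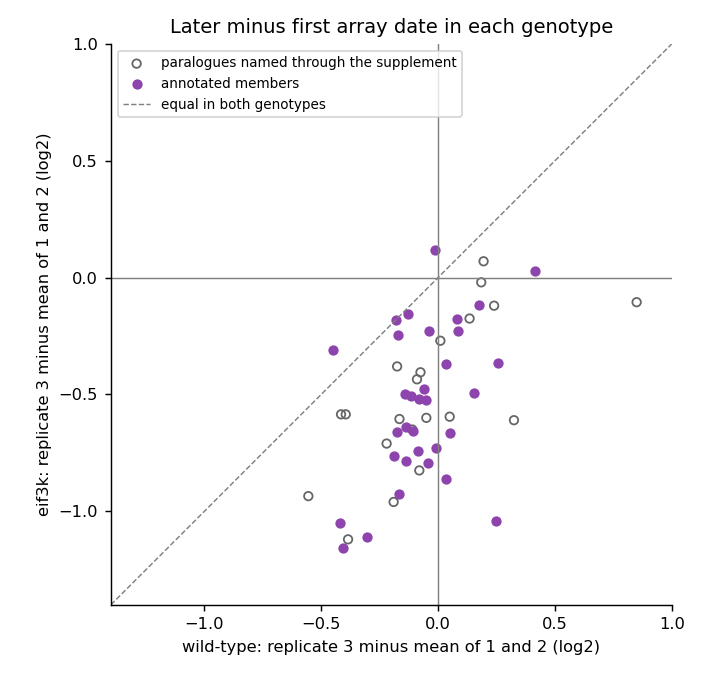
Replicate 3 minus the mean of replicates 1 and 2 (log2) in wild-type (x axis) and in eif3k (y axis), for 33 members (filled) and the 21 probe sets named through the supplement (open), with the line of equal values dashed. Most points lie below the dashed line: the member median is -0.07 on the x axis and -0.51 on the y axis.

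Transcripts of the other ribosomal proteins and of assembly factors were set beside the members. Those called other large-subunit proteins include L21 and L22, and also unlisted paralogues of listed proteins such as L4, L13 and L24. There were 59 probe sets for them, 86 for small-subunit (40S) proteins and 16 for the acidic P-stalk proteins. In these lists 0 passed the genotype test, and their median differences were -0.05, -0.02 and 0.02. In replicates 1, 2 and 3 the medians were 0.25, 0.01 and -0.40 for other large-subunit proteins, 0.32, 0.00 and -0.31 for 40S proteins and 0.35, 0.03 and -0.11 for P-stalk proteins. Each list was thus higher in eif3k in replicate 1 and lower in replicate 3, as were the members. Factors that assemble the large subunit (6 of 17 listed had an annotated probe set) also showed 0 calls. Their replicate medians were 0.35, -0.06 and -0.48. All 6 were higher in replicate 1, beside 33.1% of all probe sets and 46.5% of the brighter ones. All 6 were lower in replicate 3, beside 32.5% and 46.6%. Among them, PES read 7.92, 7.95 and 7.74 in eif3k and 7.62, 7.93 and 8.27 in wild-type, and its partner in the PeBoW complex of rRNA processing, BOP1, read 8.31, 8.17 and 8.10 against 7.77, 8.30 and 8.85. Both were chosen after their values were seen, and in both the genotypes overlapped. The 6 photosynthesis transcripts had medians of 0.06, -0.07 and 0.15.

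**Figure D5:**
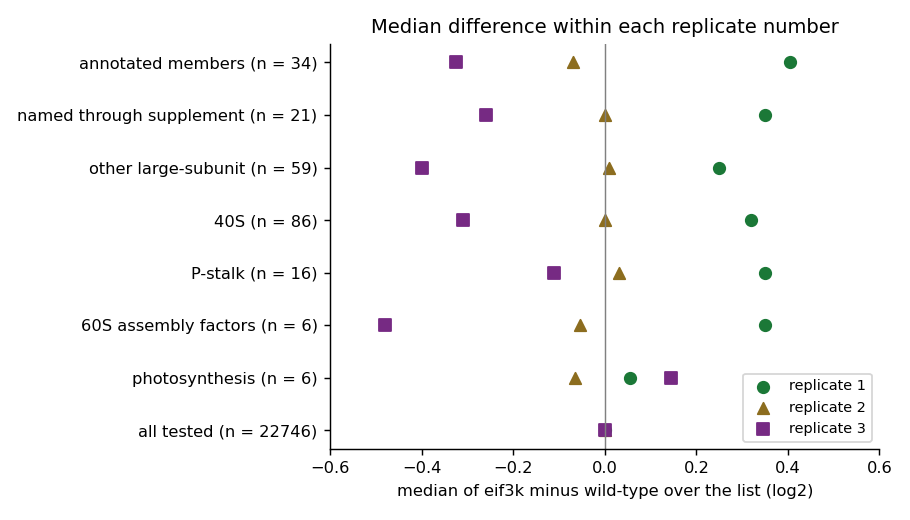
Median of eif3k minus wild-type (log2) over each gene list, within replicate 1 (circles), 2 (triangles) and 3 (squares); n is the number of probe sets. The 4 lists of ribosomal proteins beside the members and the assembly factors have circles right of 0 and squares left of 0, and all probe sets have medians of 0.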

How the data were processed

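The authors deposited log2 signals, made with GCRMA per the labels (version not given in the sources used here). GCRMA takes a background from probe sequence, scales the arrays to a common distribution and summarises each probe set, so dim probe sets share a floor and a shift of all transcripts would be removed. For its own analysis the study chose Robust Multi-array Average. The log base was taken from the method and the range of values.

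The 64 Affymetrix controls among 22810 probe sets did not enter the tests. The platform annotation covered 14016 of the 22746 tested. Members were matched through their locus, 34 of 34 with the same locus in the study's supplement, and the symbols and chromosomes came from a RefSeq table. The members and gene lists were chosen with earlier results of these data known. Brighter probe sets are those whose mean over the arrays exceeds the median over all of them.

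Genotypes and dates were compared in limma 3.58.1 under R 4.3.3 (lmFit, eBayes, 2-sided, all 6 arrays, no block, Benjamini-Hochberg over 22746), and paralogue ratios with exact permutation tests in scipy 1.17.1. The fit was tested on simulated data. P-values measure the spread between arrays of 1 line and 1 wild-type stock, and the number of arrays limits their precision. The replicate numbers were treated as pairing arrays, since the labels tie replicate 3 to its own date. Deviations of same-numbered arrays from their group means had correlations of 0.25, 0.38 and 0.54 over probe sets, which do not count as independent points. Unlike numbers within the first date correlated as well, at 0.31 and 0.40. These correlations therefore do not show that replicates 1 and 2 pair by number.

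Besides RPL24A, RPL24B and eIF3k, genes were named by rule: the 8 members of smallest p, the 4 highest and 4 lowest differences, the 6 largest date differences, the 6 paralogue ratios that changed most, and the smallest and largest SD. RPL3B, RPL8B, PES and BOP1, and members named where a count was small, were chosen after their values were seen. The alternatives were a replicate or date block, replicates 1 and 2 alone, centring on the median or 75th percentile, leaving out dim probe sets, other variance priors, array weights, other thresholds and memberships, and leaving out each array.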

Additional observations from a re-analysis of the deposited data

Results flagged for a closer look

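Of the 59 probe sets for other large-subunit proteins, 1 passed the test of the interaction of genotype with array date. Over all probe sets 3.67% passed, and 1.35% of the brighter ones. The call did not hold under every alternative. The probe set of AT4G15000, a paralogue of large-subunit protein L27, had log2 signals of 10.64, 10.70 and 9.60 in eif3k replicates 1 to 3 and of 10.43, 10.46 and 10.51 in wild-type replicates 1 to 3. Its interaction of genotype with date was -1.14 with an SE of 0.05 (limma, unadjusted p = 0.00092, adjusted p = 0.0302), and it rests on eif3k replicate 3. Each genotype has 1 later array, so the probe set's own spread comes from the arrays of the first date only. The SE from limma also draws on the spread of all probe sets in the fit, and was 0.19 with the dim filter. The call was lost with the dim filter (adjusted p = 0.307) and after median centring (adjusted p = 0.0747), and it held with an intensity trend (adjusted p = 0.0228).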

How the results depend on the processing

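With 3 arrays a group, the count of members called between genotypes stayed at 0 under every alternative run, including the replicate block, which changed no call (0 of 34, median 0.02). The member median went from -0.12 to 0.20 when single arrays were left out (0.20 without eif3k replicate 3), was 0.18 on the first date alone, 0.14 with array weights and -0.02 after centring on the array median, which shifts the median of all probe sets to -0.04. Without the probe set at the floor, an alternative chosen after seeing the data, it was 0.02. On the later date 0 members were called in every alternative that kept both later arrays. RPL14B passed without wild-type replicate 3, a fit that leaves 1 later array and so cannot measure the spread on that date. The member median of the date difference ran from -0.51 to -0.07 over all alternatives. Called over all probe sets, the date gave 156, between 0 and 872 without single arrays, and 1018 with the dim filter. The interaction gave 834, but 0 with the dim filter and 65 after median centring. Paralogue ratios with separate groups numbered 1 of 26, 13 with the first date alone (2 against 2), and 1 to 8 when arrays were left out. Groups of fewer arrays separate more easily, and no share over other ratios was taken at these numbers of arrays, so the counts cannot be compared. Of 315 alternatives for named probe sets, 41 changed sign and 0 were called, and the cause was not tested. On the first date alone the differences became 0.12 for RPL24A, 0.035 for RPL12C, 0.050 for RPL9D, 0.045 for RPL14B, 0.23 for RPL6A, 0.17 for RPL13aC, 0.14 for RPL17A and 0.21 for RPL18C. With array weights they became 0.11 for RPL24A, 0.0068 for RPL14B, 0.14 for RPL6A, 0.095 for RPL13aC, 0.099 for RPL17A and 0.12 for RPL18C, and after median centring -0.013 for RPL12A. Leaving out single arrays gave -0.20 to 0.30 for RPL24A, -0.33 to 0.018 for RPL12C, -0.40 to 0.065 for RPL9D, -0.17 to 0.065 for RPL14B, -0.18 to 0.43 for RPL19B, -0.14 to 0.39 for RPL4A, -0.28 to 0.33 for RPL6A, -0.29 to 0.23 for RPL13aC, -0.21 to 0.21 for RPL17A, -0.20 to 0.26 for RPL18C, -0.078 to 0.32 for RPL7C, -0.13 to 0.14 for RPL12A and -0.027 to 0.23 for RPL7B. Without a change of sign, it gave 0.065 to 0.39 for RPL24B, 0.093 to 0.24 for RPL10aA, 0.070 to 0.35 for RPL9B/C, -0.29 to -0.092 for RPL7D, 0.058 to 0.20 for RPL17B, 0.017 to 0.28 for RPL13aB, 0.057 to 0.33 for RPL12B and 0.00 to 0.11 for RPL13D.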
